A study of Mus musculus with 12 samples.

Results

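The TNF superfamily pairs trimeric ligands, most of them held on the surface of immune cells until they are shed, with receptors on lymphocytes, myeloid cells, epithelium and mesenchyme. Receptors with a death domain can engage caspase 8, whose activity cFLIP, the product of Cflar, holds back, while the others act mainly through TRAF adaptors and NF-kB. In the liver, TNF and TRAIL are known for hepatocyte death in injury, TWEAK and Fn14 for the response of ductular progenitor cells, and the p75 neurotrophin receptor as a marker of hepatic stellate cells. The genes described here were taken by symbol from the read count tables of whole-liver RNA-seq. They were all names of the Tnfsf and Tnfrsf series together with Tnf, Lta, Ltb, Ltbr, Cd40, Cd27, Cd70 and Ngfr. Of 38024 gene symbols in either table, 35 met the rule, 12 ligands and 23 receptors. All 35 were in the table of the choline-deficient ethionine-supplemented (CDE) diet experiment, which holds 31663 symbols. The normal diet table, with 25285 symbols, held 32 of them and lacked Tnfrsf8, Tnfsf14 and Tnfsf18. Cd70, Tnfsf4 (OX40 ligand), Tnfsf11 (RANKL) and Tnfrsf17 (BCMA) were in neither table, so no counts of them could be analysed.

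The data were RNA-seq of 12 livers of mice that the study describes as of C57BL/6 origin, 3 mice in each of 4 groups. CflarFF mice carried floxed Cflar without Cre, and CflarLKO mice carried the same floxed gene with Cre driven by the albumin promoter, which deletes it in hepatocytes. Both were females, 8 weeks old when the diet began, and all 6 had received the CDE diet for 28 days. Fgf18Tg mice carried albumin-Cre and an Fgf18 cDNA at Rosa26 that Cre switches on in hepatocytes. They were compared with NonTg mice, and both were 8 weeks old and on the normal diet. Neither the labels nor the methods say whether NonTg mice carried Cre, or which of the transgenic lines derived in the study gave these libraries. Counts of the sex-linked transcripts Xist and Ddx3y placed all 6 CDE diet libraries with females (Xist 2694 to 4458, Ddx3y 0 to 3) and all 6 normal diet libraries with males (Xist 0 to 4, Ddx3y 59 to 187), so sex differed between the experiments but not within either.

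Read totals ran from 8224069 to 9746145 in CflarFF, from 6487178 to 10414883 in CflarLKO, from 1726126 to 2215877 in NonTg and from 1136680 to 3089872 in Fgf18Tg libraries. Fgf18 itself had 191, 63 and 90 reads in the NonTg libraries and 9564, 5725 and 2803 in the Fgf18Tg libraries, in the order of replicates 1, 2 and 3 that is used throughout. In the deeper CDE diet libraries it had 0, 0 and 1 reads in CflarFF and 6, 7 and 3 in CflarLKO. The source of the Fgf18 reads in NonTg libraries was not tested. Cflar was 1.38-fold lower in CflarLKO than in CflarFF livers (log2 fold change -0.47 ± 0.13 SE, adjusted p = 0.0235, edgeR), a whole-liver value in which reads outside the deleted exon also count, and 1.35-fold lower in Fgf18Tg than in NonTg livers (adjusted p = 0.0277, edgeR). Adjusted p-values here and below come from edgeR's quasi-likelihood test with Benjamini-Hochberg adjustment over all genes tested, and a gene was called where its adjusted p was under 0.05. Normalized counts are read counts scaled by library size and TMM factor, given as mean ± SD of 3 mice. Each library came from 1 mouse, no batch is stated, and p-values measure the spread between these libraries.

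At this depth 22 of the 35 members could be tested in the CDE diet experiment and 8 of the 32 in the normal diet experiment. Compared with CflarFF livers, CflarLKO livers had higher levels of 2 ligands, Tnfsf13b (BAFF) and Ltb (lymphotoxin beta), and of 5 receptors, Tnfrsf13b (TACI), Tnfrsf11a (RANK), Tnfrsf12a (Fn14), Tnfrsf19 (TROY) and Tnfrsf21 (death receptor 6). All 7 were over 2-fold higher, and no member was called lower. The share called higher was 7 of 22 members, beside 15.6% of the 17036 genes tested, and the share called over 2-fold higher was 7 of 22 beside 11.6%. Among all genes 13.1% were called lower. At an unadjusted p under 0.05 edgeR gave 1 member lower, Tnfrsf11b, and DESeq2 also called 0 members lower. The median log2 fold change was 0.53 over the tested members and -0.0016 over all genes tested. Tnfsf13b and Tnfrsf13b, with at most 4 reads in any CflarFF library, passed the filter only through their CflarLKO libraries. They could be called only higher, and the 7, the shares of members and their median include them. The plot of log2 fold changes shows these members with those of the normal diet experiment, in which 1 receptor, Tnfrsf14 (HVEM), was called higher.

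**Figure D1:**
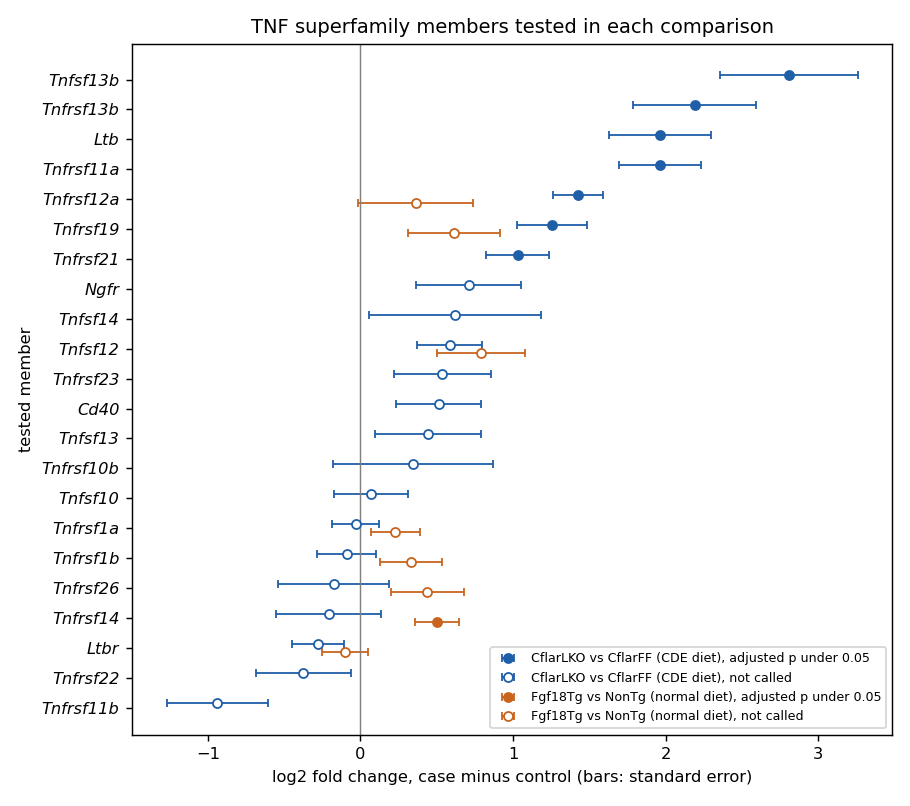
Log2 fold change (x axis, case minus control, bars are standard errors) of every tested member (y axis), in blue for CflarLKO against CflarFF on the CDE diet and in orange for Fgf18Tg against NonTg on the normal diet, with filled points called at an adjusted p under 0.05. The 7 filled blue points lie between 1.03 and 2.81, the 1 filled orange point (Tnfrsf14) is at 0.50, and no filled point lies below 0.

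To show the sequence just upstream of the 2 ligands called in the CDE diet experiment, the 250 bases before the RefSeq start (GRCm38.p6) are given below 5′ to 3′ on the gene's strand, with capitals marking a match to the NF-kB consensus in Ltb (chr17:35194257-35194506, plus strand) and to the AP-1 motif TGANTCA in the window of Tnfsf13b that holds one (chr8:10006383-10006632, plus strand).
Ltb: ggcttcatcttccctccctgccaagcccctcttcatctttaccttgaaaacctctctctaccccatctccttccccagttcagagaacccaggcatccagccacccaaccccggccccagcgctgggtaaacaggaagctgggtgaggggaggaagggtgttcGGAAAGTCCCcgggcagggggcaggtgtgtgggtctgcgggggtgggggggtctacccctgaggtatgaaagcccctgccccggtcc
Tnfsf13b: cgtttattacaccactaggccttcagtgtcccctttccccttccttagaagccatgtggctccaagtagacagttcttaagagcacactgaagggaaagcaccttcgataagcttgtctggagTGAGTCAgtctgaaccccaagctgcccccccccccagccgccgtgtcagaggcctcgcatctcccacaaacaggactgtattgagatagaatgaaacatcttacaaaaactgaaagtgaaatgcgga
Both strands were searched in the same 250 bases of every RefSeq gene, and neither printed window held the other motif. Windows were found for 28 of the 35 members (32 windows, as some genes have more than 1 start). The NF-kB consensus was matched in 4 of the 32 windows, beside 7.25% of 32851 windows of all genes, and the AP-1 motif in 5 of the 32, beside 6.75%. Of the 7 members called in CflarLKO livers, each motif was matched upstream of 1. A match is a description of these letters and not of a site in use.

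Among the ligands, Tnfsf13b encodes BAFF, the survival factor of B cells, which myeloid and stromal cells release. Its reads numbered 2, 2 and 2 in the CflarFF libraries and 29, 19 and 11 in the CflarLKO libraries. Every CflarLKO library was above every CflarFF library. The level was 2.32 ± 0.0867 normalized counts in CflarFF and 16.7 ± 3.54 in CflarLKO livers, a 7.01-fold rise (log2 fold change 2.81 ± 0.45 SE, adjusted p = 0.00131, edgeR). Since all 3 controls held so few reads, the ratio of summed counts has a 95% exact interval of 3.23 to 21.2, which covers counting error only. Markers of monocytes and their macrophages, a source of BAFF, were called higher for 12 of 13 tested. Their summed levels were 2545 to 2827 normalized counts in CflarFF and 5929 to 7136 in CflarLKO libraries. Of Kupffer cell markers, 1 of 8 tested was called higher and 1 lower, with sums of 2403 to 3320 and 2802 to 3249. The part of these cells in the rise of Tnfsf13b was not tested. Tnfsf13, which encodes APRIL, the relative of BAFF that also binds TACI, had 14, 21 and 13 reads in CflarFF and 48, 26 and 15 in CflarLKO libraries. The groups overlapped once scaled, at 15.5 to 24.8 against 18.0 to 33.6 normalized counts, and the gene was not called (log2 fold change 0.44 ± 0.35, adjusted p = 0.37, edgeR).

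The BAFF receptors differed from each other. Tnfrsf13b encodes TACI, a receptor for BAFF and APRIL on B and plasma cells. Its reads were 4, 3 and 4 in CflarFF and 33, 24 and 12 in CflarLKO libraries. The groups did not overlap, and the level rose 4.56-fold, from 4.25 ± 0.632 to 19.5 ± 4.5 normalized counts (log2 fold change 2.19 ± 0.40, adjusted p = 0.00251, edgeR). Tnfrsf13c, which encodes the BAFF receptor of mature B cells, had 9, 2 and 2 reads in CflarFF and 7, 4 and 7 in CflarLKO libraries and was too low to be tested. Its highest CflarFF library lay above all 3 CflarLKO libraries once scaled (9.99 against 3.48 to 8.42 normalized counts), and the ratio of summed counts was 1.05 (95% exact interval 0.487 to 2.33). In bulk liver, fewer or more cells of a type and less or more RNA per cell cannot be told apart. Markers of plasma cells moved in the same direction as Tnfrsf13b, with 3 of 4 tested markers called higher and a summed level of 133 to 386 normalized counts in CflarFF and 741 to 1524 in CflarLKO libraries. Of B cell markers 0 of 5 tested were called, with sums of 57.1 to 147 and 106 to 148. The part of these cells in the rise of Tnfrsf13b was not tested.

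Ltb encodes the chain that anchors lymphotoxin to the membrane of lymphocytes, from where it signals through Ltbr to stromal and epithelial cells. It had 17, 24 and 9 reads in CflarFF and 122, 65 and 71 in CflarLKO libraries. Each CflarLKO library was above the highest CflarFF library. The level went from 19.3 ± 8.81 to 75.8 ± 16.7 normalized counts, 3.90-fold higher (log2 fold change 1.96 ± 0.33, adjusted p = 0.00171, edgeR). Its receptor gene Ltbr had 1213, 1237 and 815 reads in CflarFF and 1535, 1160 and 854 in CflarLKO libraries. After scaling, the CflarLKO libraries (1008 to 1074) lay inside the range of the CflarFF libraries (969 to 1460), and Ltbr was not called (log2 fold change -0.28 ± 0.17, adjusted p = 0.246, edgeR). Without CflarFF replicate 3 it was called lower (-0.43, adjusted p = 0.0484). Of T cell markers, 6 of 11 tested were called higher in CflarLKO livers, with a summed level of 178 to 214 normalized counts in CflarFF and 395 to 415 in CflarLKO libraries. Of NK and innate lymphoid cell markers, 2 of 3 tested were called higher and 1 lower, with sums of 368 to 680 and 356 to 440. The part of these cells in the rise of Ltb was not tested.

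RANK, the product of Tnfrsf11a, is the receptor of RANKL on osteoclast precursors and dendritic cells and binds TRAF6. Tnfrsf11a had 18, 11 and 18 reads in CflarFF and 95, 90 and 57 in CflarLKO libraries. No CflarLKO library came near the CflarFF range, and the level rose 3.90-fold from 18.1 ± 4.51 to 71.1 ± 6.27 normalized counts (log2 fold change 1.96 ± 0.27, adjusted p = 0.000561, edgeR). Of dendritic cell markers, 5 of 10 tested were called higher, with sums of 1712 to 2557 and 8306 to 9625 normalized counts, and their part was not tested. Tnfrsf11b encodes osteoprotegerin, the soluble decoy that binds RANKL and TRAIL. Its reads were 17, 25 and 30 in CflarFF and 24, 15 and 11 in CflarLKO libraries. After scaling it was the 1 tested member whose CflarLKO libraries (13.0 to 16.8 normalized counts) all lay below its CflarFF libraries (18.9 to 35.7), but it did not pass the threshold (log2 fold change -0.94 ± 0.33, adjusted p = 0.0551, edgeR). Without CflarFF replicate 1 it did (-1.16, adjusted p = 0.0322).

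Tnfrsf12a encodes Fn14, the TWEAK receptor, which injured epithelium and mesenchyme induce. It had 199, 186 and 176 reads in CflarFF and 978, 530 and 499 in CflarLKO libraries. The 3 CflarFF libraries were close to each other and all CflarLKO libraries were above them. The level was 217 ± 6.3 and 582 ± 113 normalized counts, a 2.69-fold rise (log2 fold change 1.43 ± 0.16, adjusted p = 0.000222, edgeR). Cholangiocyte and ductular cell markers were called higher for 7 of 9 tested, with sums of 421 to 926 normalized counts in CflarFF and 1666 to 2144 in CflarLKO libraries, and their part in the rise of Tnfrsf12a was not tested. Tnfsf12, the gene of TWEAK, had 46, 65 and 45 reads in CflarFF and 141, 99 and 72 in CflarLKO libraries. Its groups did not overlap either (51.1 to 76.7 against 86.1 to 98.7 normalized counts), but the 1.50-fold difference missed the threshold (log2 fold change 0.59 ± 0.21, adjusted p = 0.0613, edgeR). It was called without CflarFF replicate 2 (0.80, adjusted p = 0.0147) and under 4 other settings given in the closing section. Tnfsf12 shares exons with Tnfsfm13, a readthrough transcript into Tnfsf13, and how reads of the shared exons were assigned is not given in the sources used here. With Tnfsf12, Tnfsf13 and Tnfsfm13 summed as 1 locus, a choice made after seeing the data, the log2 fold change was 0.43 ± 0.19 (adjusted p = 0.109, edgeR).

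The other receptors called were Tnfrsf19 and Tnfrsf21. TROY, the product of Tnfrsf19, is known from the developing nervous system and from hair follicles, and its gene had 37, 38 and 27 reads in CflarFF and 159, 90 and 77 in CflarLKO libraries. The groups were separate, and the level rose 2.39-fold from 39.3 ± 6.54 to 94 ± 16.6 normalized counts (log2 fold change 1.26 ± 0.23, adjusted p = 0.00246, edgeR). Tnfrsf21 encodes death receptor 6, which carries a death domain, and had 36, 46 and 41 reads in CflarFF and 150, 116 and 71 in CflarLKO libraries. Again no library of one group fell in the range of the other, and the level rose 2.04-fold from 47.7 ± 7.22 to 97.1 ± 10.3 normalized counts (log2 fold change 1.03 ± 0.21, adjusted p = 0.00396, edgeR).

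**Figure D2:**
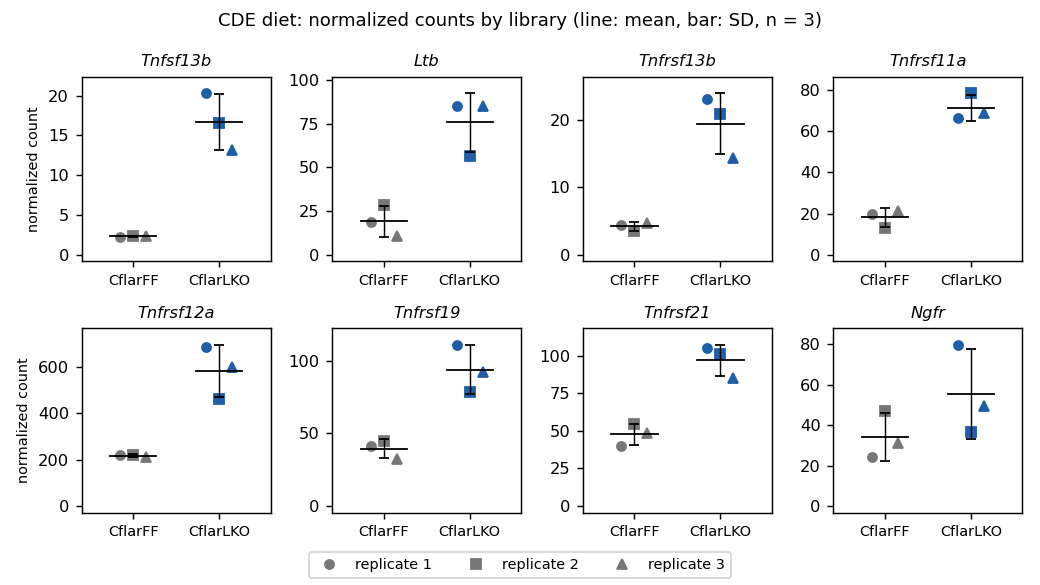
Normalized counts (y axis, own scale in each panel) of the 7 called members and Ngfr in each CDE diet library, with CflarFF in grey and CflarLKO in blue; symbols mark the replicate, horizontal lines the mean and bars the SD of 3 mice. In the 7 panels of called members every CflarLKO point lies above every CflarFF point, whereas for Ngfr the CflarLKO points (36.5 to 79.8) overlap the CflarFF points (24.4 to 47.2).

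Ngfr encodes the p75 neurotrophin receptor, which the study stained as a stellate cell marker in livers of Fgf18 transgenic mice. The study also measured its mRNA in sorted stromal cells and by single-cell RNA-seq. In the CDE diet experiment Ngfr had 22, 40 and 26 reads in CflarFF and 114, 42 and 41 in CflarLKO libraries. CflarLKO replicate 1 was high, at 79.8 normalized counts, and the other CflarLKO libraries, at 36.5 and 49.3, were within or just above the CflarFF range of 24.4 to 47.2. Ngfr was not called (log2 fold change 0.71 ± 0.35, adjusted p = 0.15, edgeR). Markers of stellate cells and fibroblasts were called higher for 11 of 16 tested, with sums of 3978 to 5687 normalized counts in CflarFF and 10464 to 13663 in CflarLKO libraries.

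Receptors of TNF and TRAIL, ligands known for hepatocyte death in injury, were not called. The death receptor gene Fas, whose symbol falls outside the naming series, was called lower and is described below. Tnfrsf1a, the TNF receptor with a death domain, was at 734 ± 128 normalized counts in CflarFF and 718 ± 28.1 in CflarLKO livers, and its groups overlapped (log2 fold change -0.03 ± 0.16, adjusted p = 0.899, edgeR). Tnfrsf1b, the TNF receptor without one, was at 163 ± 36.6 and 153 ± 17.7 (log2 fold change -0.09 ± 0.19, adjusted p = 0.764). Tnfsf10, the gene of TRAIL, was at 45.5 ± 4.72 and 47.6 ± 9.58, and its receptor gene Tnfrsf10b varied widely among the CflarFF libraries, with 152, 267 and 55 reads against 289, 323 and 178 in CflarLKO libraries. The mouse decoy receptor genes Tnfrsf22 and Tnfrsf23 had log2 fold changes of -0.37 and 0.54 and were not called. Cd40, the B cell and macrophage receptor for CD40 ligand, had 21, 28 and 19 reads in CflarFF and 49, 50 and 29 in CflarLKO libraries. After scaling its groups did not overlap, but it was not called (log2 fold change 0.51 ± 0.28, adjusted p = 0.191, edgeR). In all, 9 of the 22 tested members were without overlap and higher in CflarLKO livers, beside 23.8% of all genes tested. They include Tnfsf13b and Tnfrsf13b, which passed the filter only through CflarLKO libraries. A further 1 was without overlap and lower, beside 21%. Of the remaining members tested, Tnfsf14 (LIGHT), Tnfrsf14 and Tnfrsf26 overlapped and had log2 fold changes of 0.62, -0.21 and -0.18. For Tnfsf14 the value was 0.0050 without CflarLKO replicate 3 and 1.12 without CflarFF replicate 2, and it was called in neither.

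The 13 members below the filter in the CDE diet experiment had between 1 and 42 reads over the 6 libraries together. Of these, 2 were higher without overlap, beside 9.13% of the genes that the filter left out, and 0 were lower, beside 2.95%. Tnf, the founding ligand, had 1, 2 and 1 reads in CflarFF and 14, 8 and 5 in CflarLKO libraries. All CflarLKO libraries were above the CflarFF libraries, with a ratio of summed counts of 5.12 (95% exact interval 1.79 to 20.2). With no filter for low counts Tnf was called (adjusted p = 0.0197, edgeR), and with DESeq2 it was not (adjusted p = 0.113). Tnfrsf18, which encodes GITR on regulatory T cells, had 2, 2 and 2 reads in CflarFF and 10, 8 and 3 in CflarLKO libraries, a ratio of 2.66 (1.04 to 8.05). For both the two-sided exact permutation test gave p = 0.1, the smallest that 3 libraries against 3 allow. Groups without overlap always give this value, so it is no added support. Tnfsf8, the CD30 ligand, had 0, 0 and 1 reads in CflarFF and 7, 1 and 5 in CflarLKO libraries, and these overlapped once scaled. Lta, Tnfrsf8 and Tnfsf18 had a single read each in all 6 libraries, so that a difference was not detectable at this depth. The other members in this range, Cd27, Tnfrsf4, Tnfrsf9, Tnfrsf25, Tnfsf9 and Tnfsf15, had 0 to 13 reads in any library and overlapped between the groups.

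The normal diet experiment asked what expression of Fgf18 in hepatocytes does without the diet, and its shallower libraries left 8 members to test. Tnfrsf14, which encodes HVEM, the receptor of LIGHT and lymphotoxin alpha on lymphocytes, myeloid cells and epithelium, was the 1 member called higher, and 0 were called lower. These are 1 and 0 of 8, beside 10.7% and 11.7% of the 10909 genes tested, and 0 of 8 were called over 2-fold higher, beside 6.71%. At an unadjusted p under 0.05 edgeR gave 2 members higher and 0 lower, and DESeq2 called 1 higher, Ltb, and 0 lower. The median log2 fold change was 0.40 over the 8 members and 0.019 over all genes. Without overlap were 4 of the 8, beside 38.6% of all genes tested, all of them higher (beside 19.4%) and 0 lower (beside 19.3%).

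Tnfrsf14 had 101, 64 and 100 reads in NonTg and 229, 166 and 98 in Fgf18Tg libraries. After scaling every Fgf18Tg library (138 to 150 normalized counts) was above every NonTg library (84.6 to 113). The rise was 1.41-fold, from 102 ± 15.3 to 146 ± 6.94 normalized counts (log2 fold change 0.50 ± 0.14, adjusted p = 0.0197, edgeR). The call was lost with DESeq2 (0.45, adjusted p = 0.194), with all 12 libraries in 1 fit (0.44, adjusted p = 0.0658, edgeR), without Fgf18Tg replicate 2 (0.47, adjusted p = 0.0708) and without NonTg replicate 2 (0.36, adjusted p = 0.111). Of its ligands, Lta had a single read, in Fgf18Tg replicate 2, and Tnfsf14 was not in this table.

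Of the other tested members, Tnfsf12 had 15, 10 and 11 reads in NonTg and 42, 22 and 19 in Fgf18Tg libraries. Its groups did not overlap (12.4 to 16.1 against 19.8 to 29.1 normalized counts), and the difference of 1.73-fold missed the threshold (log2 fold change 0.79 ± 0.29, adjusted p = 0.058, edgeR). Summed with the overlapping Tnfsf13 and Tnfsfm13 as 1 locus, it was called (0.94 ± 0.22, adjusted p = 0.00486, edgeR). Its receptor gene Tnfrsf12a had 17, 21 and 12 reads in NonTg and 62, 18 and 10 in Fgf18Tg libraries. Here Fgf18Tg replicate 1 alone was high, and the log2 fold change of 0.36 ± 0.38 (adjusted p = 0.541, edgeR) turned to -0.31 without it. Tnfrsf19 (12, 10 and 16 reads against 31, 32 and 14) and Tnfrsf26 (20, 17 and 20 against 51, 37 and 16), a relative of the mouse decoy receptors, did not overlap after scaling and were not called (log2 fold changes 0.61 and 0.44, adjusted p = 0.161 and 0.208, edgeR). Tnfrsf1a, Tnfrsf1b and Ltbr overlapped, with log2 fold changes of 0.23, 0.33 and -0.10.

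The filter left out 24 members here, with 1 to 64 reads over the 6 libraries, and 18 of them had no read in at least 1 library. Of the 24, 7 were higher in Fgf18Tg libraries without overlap once scaled, beside 11% of the genes left out, and 1 was lower, beside 1.89%. Ltb stood out by its ratio, with 0, 1 and 0 reads in NonTg and 18, 5 and 5 in Fgf18Tg libraries. All Fgf18Tg libraries were above the NonTg libraries, and the ratio of summed counts was 21 (95% exact interval 3.47 to 858). With no filter for low counts Ltb was called (log2 fold change 3.95 ± 0.94, adjusted p = 0.000537, edgeR), and it was also called by DESeq2 (adjusted p = 0.0425) and with all 12 libraries in 1 fit (adjusted p = 0.00693, edgeR). Tnfsf13 (APRIL) had 1, 0 and 0 reads in NonTg and 4, 8 and 4 in Fgf18Tg libraries, a ratio of 12 (1.86 to 503). Besides Tnfsfm13, it overlaps the antisense transcript Tnfsf13os, and with no strand stated for the counting their reads cannot be told apart. Cd40 had 2, 0 and 0 reads in NonTg and 13, 3 and 4 in Fgf18Tg libraries, a ratio of 7.5 (1.82 to 66.1). Both Tnfsf13 and Cd40 were called with no filter (adjusted p = 0.0309 and 0.0319, edgeR) and with all 12 libraries in 1 fit (adjusted p = 0.0338 and 0.0346). The filter left out Ltb, Tnfsf13 and Cd40 on the normal diet alone, and they entered that fit only with the deeper CDE diet libraries included. Its dispersions also draw on both experiments, so its calls are no separate support. DESeq2 did not call Cd40 (adjusted p = 0.24) and gave no adjusted p for Tnfsf13.

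The remaining 4 were lower still in reads or in ratio. Tnf had no read in NonTg and 3, 1 and 1 reads in Fgf18Tg libraries, and the lower limit of the exact 95% interval of the ratio was 0.687, so that a difference was not detectable at this depth. Tnfrsf9, which encodes the T cell receptor 4-1BB, had none in NonTg and 3, 3 and 2 in Fgf18Tg libraries, and the same lower limit was a 1.28-fold ratio. Tnfrsf10b (TRAIL receptor) had 8, 2 and 4 reads in NonTg and 15, 15 and 13 in Fgf18Tg libraries, a ratio of 2.3 (1.24 to 4.56). Tnfrsf13c (BAFF receptor) had 0, 1 and 1 against 4, 2 and 1, a ratio of 2.62 (0.5 to 25.9). The member lower without overlap was Tnfsf15, the TL1A gene, at 2, 1 and 1 against 1, 1 and 0 reads, with a ratio of 0.375 (0.0339 to 2.62). For Tnfrsf13c and Tnfsf15 the groups tied at 1 read and were separate only after scaling. Each of these 8 members had p = 0.1 in the two-sided exact permutation test, the smallest the design allows. Groups without overlap always give this value, so it adds nothing to the separation by which the 8 were picked.

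Markers of some immune cells moved with these low members. The summed level of 13 B cell markers was 19.2 to 22.5 normalized counts in NonTg and 52.0 to 59.4 in Fgf18Tg libraries, with Ms4a1 and Blk at 0 in all NonTg libraries, and none had enough reads to be tested. Neutrophil markers were called higher for 9 of 10 tested, beside 10.7% of all genes tested. Their sums were 22.6 to 26.9 and 427 to 763, and 7 of the 12 on the list, among them Mpo and Elane, were at 0 in all NonTg libraries. Such markers could pass the filter only through Fgf18Tg libraries and be called only higher. Markers of monocytes and their macrophages were called higher for 5 of 7 tested, with sums of 159 to 201 and 471 to 499. Of Kupffer cell markers 0 of 4 tested were called, with sums of 244 to 334 and 204 to 297, and the 1 marker of NK and innate lymphoid cells tested was called lower, with sums over that list of 63.5 to 96.5 and 42.7 to 56.6. Dendritic cell markers were called higher for 3 of 4 tested, with sums of 96.1 to 141 and 431 to 603. T cell markers had too few reads to be tested, with sums of 18.5 to 28.0 and 31.2 to 47.4. These sums cover 13 of the 17 on the list, as Trac, Trbc1, Trbc2 and Cd5 were absent from the normal diet symbols. Sums of plasma cell markers overlapped, at 3.96 to 9.04 and 9.00 to 18.0. They cover 4 of the 9 on the list, as Igha, Ighm, Iglc1, Iglc2 and Igkc were absent from the normal diet symbols. The CDE diet sums hold all 9, so the 2 experiments are not alike in this measure. The part of these cells in the counts of Ltb, Cd40 and Tnf was not tested.

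BAFF and TACI, which had the highest log2 fold changes among the 22 members tested in CflarLKO livers, had next to no reads in the normal diet libraries. Tnfsf13b had 0, 2 and 0 reads in NonTg and 2, 1 and 0 in Fgf18Tg libraries, a ratio of 1.12 (95% exact interval 0.129 to 13.5). Tnfrsf13b had none in NonTg and 4, 0 and 1 in Fgf18Tg libraries. A difference in either was not detectable at this depth. Tnfrsf11a had 5, 2 and 7 reads in NonTg and 21, 17 and 3 in Fgf18Tg libraries, with replicate 3 inside the NonTg range, and Tnfrsf21 had 3, 6 and 8 against 11, 14 and 7. Ngfr had 5, 2 and 4 reads in NonTg and 8, 12 and 20 in Fgf18Tg libraries. In normalized counts these were 5.38, 2.64 and 4.52 against 4.81, 10.8 and 30.6, so Fgf18Tg replicate 1 lay within the NonTg range and replicate 3, the shallowest library, was high. The ratio of summed Ngfr counts was 2.73 (1.37 to 5.89), and with no filter it was called (log2 fold change 1.48 ± 0.51, adjusted p = 0.0328, edgeR). It was not called with DESeq2 (adjusted p = 0.168) or with all 12 libraries in 1 fit (adjusted p = 0.174, edgeR). Stellate cell and fibroblast markers were called higher for 11 of 15 tested, with sums of 492 to 665 and 1693 to 2270 normalized counts.

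**Figure D3:**
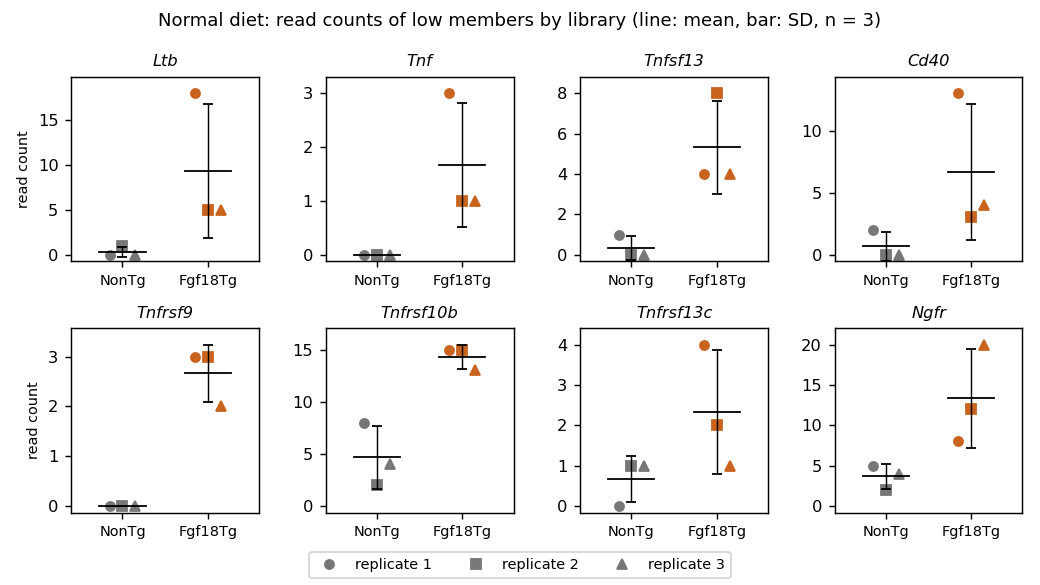
Read counts (y axis, not scaled for depth, own scale in each panel) of the 7 low members that were higher without overlap once scaled and of Ngfr in each normal diet library, with NonTg in grey and Fgf18Tg in orange; symbols mark the replicate, horizontal lines the mean and bars the SD of 3 mice. In these unscaled reads the groups of Tnfrsf13c tie at 1 read. Ltb goes from at most 1 read to 5 or more, Tnf and Tnfrsf9 from 0 to 1 to 3, and the highest Fgf18Tg point of Ngfr is 20 reads.

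The difference between the 2 effects was tested on all 12 libraries over 13956 genes, 19 of them members. None of the 19 passed the threshold in edgeR, beside 3.1% of all genes, 3 had an unadjusted p under 0.05, and DESeq2 also gave 0, with 2 at an unadjusted p under 0.05. The 3 were Tnfrsf12a, with a log2 difference of 1.15 ± 0.42 (adjusted p = 0.157, edgeR), Cd40 with -2.23 ± 0.97 (adjusted p = 0.243) and Tnfsf13 with -2.98 ± 1.19 (adjusted p = 0.201). Without Fgf18Tg replicate 1, the library in which Tnfrsf12a was high, its difference was 1.82 ± 0.37 (adjusted p = 0.0166). For Tnfrsf14 the log2 fold change was -0.21 on the CDE diet and 0.50 on the normal diet, and their difference was -0.62 ± 0.32 (adjusted p = 0.362). For Ltb the log2 difference, CDE diet effect minus normal diet effect, was -2.19 ± 1.23 (adjusted p = 0.395). The filter left out Cd40, Tnfsf13 and Ltb on the normal diet alone, so their differences rest on few normal diet reads. Diet, age, sex and control mice differ between the experiments and cannot be told apart.

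Genes that act with the superfamily were counted by list, beside 15.6% higher and 13.1% lower among all genes tested in CflarLKO livers and 10.7% and 11.7% in Fgf18Tg livers. Of the adaptors, kinases and ubiquitin ligases near the receptors, 7 of 30 tested were higher and 3 lower in CflarLKO livers, with a median log2 fold change of 0.015. Tnip1, which binds A20, rose (1.54 ± 0.24, adjusted p = 0.00141, edgeR), as did Map3k14, the NIK kinase of the non-canonical NF-kB pathway through which LTBR, RANK and BAFF receptors act (1.41 ± 0.24, adjusted p = 0.00185), and Tnfaip3, which encodes A20 itself (1.02 ± 0.27, adjusted p = 0.0152). Traf1, the next by size, was also higher (0.97 ± 0.30, adjusted p = 0.0305), and Traf4, Otulin and Cflar were the 3 lower. In Fgf18Tg livers 0 of 23 were higher and 1, Cflar, was lower, and the reads of Map3k14 (9 in Fgf18Tg replicates 1 to 3 together) and Tnfaip3 were too few to test.

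NF-kB genes were higher for 6 and lower for 1 of 14 tested in CflarLKO livers, with a median log2 fold change of 0.48. The highest were Nfkbid (1.56 ± 0.42, adjusted p = 0.0176, edgeR), a nuclear inhibitor-like protein, Relb (1.04 ± 0.26, adjusted p = 0.0129), Nfkb2 (0.88 ± 0.17, adjusted p = 0.00352) and Nfkbie (0.82 ± 0.16, adjusted p = 0.00382). Relb and Nfkb2 encode the RelB and p100 subunits of the non-canonical pathway, and Chuk, its kinase IKK alpha, was lower (-0.54 ± 0.15, adjusted p = 0.0174). In Fgf18Tg livers 2 of 12 tested were higher, Nfkb2 (1.16 ± 0.25, adjusted p = 0.00311, edgeR) and Nfkb1 (0.83 ± 0.24, adjusted p = 0.0182), and 2 were lower, Ikbkg (-0.69 ± 0.18, adjusted p = 0.0133) and Chuk (-0.49 ± 0.14, adjusted p = 0.0209), with a median of 0.22.

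Of genes that shed or process the ligands and receptors, 4 of 7 were higher and 1 lower in CflarLKO livers, and 2 higher and 1 lower in Fgf18Tg livers. Timp3, the inhibitor of the TNF-releasing protease ADAM17, rose by a log2 fold change of 2.34 ± 0.19 in CflarLKO livers (adjusted p = 4.37e-05, edgeR) and of 1.49 ± 0.27 in Fgf18Tg livers (adjusted p = 0.000862). Rhbdf1, which carries ADAM17 to the surface, rose by 0.88 ± 0.23 and 0.94 ± 0.22 (adjusted p = 0.0178 and 0.00481, edgeR). Adam10 was higher in CflarLKO livers (0.81 ± 0.13, adjusted p = 0.00145), and Pcsk6, a proprotein convertase, was lower in both (-1.01 ± 0.14 and -0.68 ± 0.15, adjusted p = 0.000719 and 0.0035, edgeR). Of TNF family genes whose symbols fall outside the naming series, Eda, the ectodysplasin ligand, had 23, 31 and 16 reads in CflarFF and 112, 81 and 42 in CflarLKO libraries and rose (1.31 ± 0.29, adjusted p = 0.00704, edgeR). Fas, a death receptor, had 314, 298 and 209 reads in CflarFF and 304, 245 and 148 in CflarLKO libraries and was lower (-0.65 ± 0.17, adjusted p = 0.0143). In Fgf18Tg livers Fas was not called (-0.34, adjusted p = 0.42, edgeR).

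**Figure D4:**
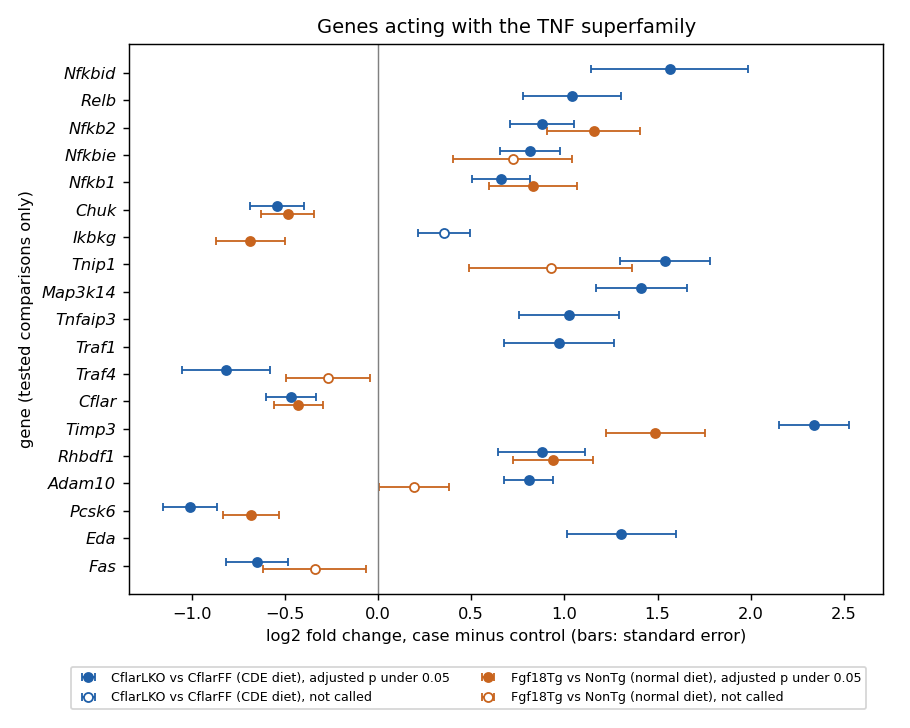
Log2 fold change (x axis, case minus control, bars are standard errors) of genes acting with the TNF superfamily (y axis), in blue for CflarLKO against CflarFF and in orange for Fgf18Tg against NonTg, with filled points called at an adjusted p under 0.05; a comparison without a point had too few reads to be tested. Nfkb2, Nfkb1, Timp3 and Rhbdf1 are filled to the right of 0 in both, Chuk, Cflar and Pcsk6 to the left in both, and Timp3 in CflarLKO livers lies farthest right at 2.34.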

How the data were processed

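Polyadenylated RNA of whole liver was reverse transcribed with template switching, amplified by PCR and sequenced on a NovaSeq instrument, and the authors mapped reads to GRCm39 with Bowtie2. The counting tool and gene annotation are not given in the sources used here. Each experiment has a table of whole-number read counts per gene symbol, deposited unnormalized, and a table of normalized signal, which the authors obtained with TCC-GUI and in which every count of a library is divided by the same factor. All columns matched a sample, with 0 left over. Symbols carry no coordinates, and those printed come from RefSeq on GRCm38.p6.

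Counts were fitted per experiment in R 4.3.3 with edgeR 4.0.16 (TMM, filterByExpr with a minimum count of 10 and total of 15, robust quasi-likelihood test, Benjamini-Hochberg over all genes tested). TMM factors were 0.818 to 0.912 in CflarFF, 1.14 to 1.22 in CflarLKO, 0.854 to 0.896 in NonTg and 1.11 to 1.19 in Fgf18Tg libraries. Members below the filter are given as reads, with a ratio of depth-scaled sums and its 95% exact binomial interval, which covers counting error only, as PCR reads without molecular identifiers are not independent molecules. Alternatives were other scalings, DESeq2 1.42.0, limma 3.58.1 on the log2 of the authors' normalized values plus 1, other filters, a replicate block, all 12 libraries together and leaving out each library. The fits were tested on simulated data.

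The members, gene lists and tests were chosen with earlier results of these data known. Named are members called in either comparison, Tnfsf13b and Ngfr, partners of called members, members below the filter without overlap, and up to 4 called genes per pathway list with the largest change, and the other members by ranges, with a few of them shown as reads after their values were seen. No source states a pairing, and same-numbered libraries of the 2 groups of an experiment correlated by -0.113 to 0.087 in how they departed from their group means.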

Additional observations from a re-analysis of the deposited data

How the results depend on the processing

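The 7 members called higher in CflarLKO livers were 7 with RLE factors, with DESeq2 and with a replicate block. Each of the 7 was called under all 15 alternatives except Tnfsf13b and Tnfrsf13b in the fit of all 12 libraries, whose filter left them out. Tnfrsf21 fell under 2-fold without CflarFF replicate 1 (log2 fold change 0.92) and without CflarLKO replicate 1 (0.97). Scaling by library size only gave 11 members higher in CflarLKO and 6 in Fgf18Tg livers, but it moved the median of all genes to 0.46 and 0.42 on the log2 scale. Under it these log2 fold changes of uncalled members turned from negative to positive: in CflarLKO livers Ltbr 0.17, Tnfrsf14 0.26, Tnfrsf1a 0.42, Tnfrsf1b 0.38, Tnfrsf22 0.088 and Tnfrsf26 0.29, and in Fgf18Tg livers Ltbr 0.30. Tnfrsf1a also turned, to 0.016 with the authors' factors and 0.030 with limma on the authors' values. Tnfsf12 in CflarLKO livers was called with library size only (1.04, adjusted p = 0.0054, edgeR), the authors' factors (0.63, adjusted p = 0.0493), limma (0.64, adjusted p = 0.048) and all 12 libraries (0.61, adjusted p = 0.0258).

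The 1 member called higher in Fgf18Tg livers became 5 with no filter and 0 when a 2-fold change was also required. With all 12 libraries it became 3, none of them Tnfrsf14 and all left out by the filter on the normal diet alone.

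Leaving out each library in turn, members called higher in Fgf18Tg livers ran from 0 to 3, members called lower in CflarLKO livers from 0 to 1 (Tnfrsf11b or Ltbr) and members whose effect differed between the models from 0 to 1 (Tnfrsf12a). Log2 fold changes that changed sign ran, in CflarLKO livers, from -0.053 to 0.99 for Tnfrsf10b, from -0.36 to 0.027 for Tnfrsf14, from -0.17 to 0.058 for Tnfrsf1a, from -0.26 to 0.029 for Tnfrsf1b, from -0.30 to 0.079 for Tnfrsf26 and from -0.10 to 0.17 for Tnfsf10. In Fgf18Tg livers they ran from -0.19 to 0.0016 for Ltbr and from -0.31 to 0.63 for Tnfrsf12a. None of these members was called in its comparison with all libraries, and the cause of the other changes was not tested.

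No pairing of the libraries is stated. With the replicate block the members called stayed at 7 and 0 in CflarLKO, 1 and 0 in Fgf18Tg livers and 0 for the difference between the models.

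Depth limits the normal diet experiment: 24 of 32 members had too few reads to be tested, and counts of 0 to 5 reads cannot show differences of ordinary size.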

Other observations

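Transcripts at the Tnfsf12 and Tnfsf13 locus that are no members moved as follows. Tnfsfm13, the readthrough of both genes, had 49, 56 and 56 reads in CflarFF and 139, 58 and 65 in CflarLKO libraries, which overlapped once scaled (log2 fold change 0.28 ± 0.26, adjusted p = 0.452, edgeR). In NonTg it had 8, 5 and 13 reads and in Fgf18Tg libraries 39, 18 and 7, and these overlapped too (0.84 ± 0.38, adjusted p = 0.124, edgeR). Tnfsf13os, antisense to Tnfsf13, had 0, 1 and 1 reads in CflarFF and 5, 4 and 3 in CflarLKO libraries, and 0 in all NonTg and 2, 1 and 1 in Fgf18Tg libraries, higher without overlap in both experiments.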
